A study of Mus musculus with 40 samples.

Results

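The 7 MHC class II genes described here are H2-Aa, H2-Ab1, H2-Eb1, H2-DMa, H2-DMb1, Cd74 and Ciita. They were taken by gene symbol from a list set for this work and all 7 were measured, among 21204 genes that passed the submitters' filter on low values and 48733 genes in their full table. RNA was sequenced from the rib callus of wild-type mice after resection of a piece of rib, in immature mice of 7 weeks and mature mice older than 10 months. The stages were a baseline (BL), the time of resection (0dpr) and days 2, 5 and 14 after it (2dpr, 5dpr and 14dpr, where dpr stands for days post resection). Each of the 10 groups had 4 libraries, except mature 5dpr with 3, because the library of its replicate 2 was not analysed here. Every group shared the strain, C57BL/6 by the study's methods, and the female sex, and no group received an agent or carried an engineered allele. The tissue pieces held bone, bone marrow and intercostal muscle, so each value is an average over all of their cells. The labels describe tissue taken after resection for every sample, whereas the study uses baseline for the state before resection in its imaging and plasma measurements. The study's methods speak of individual biological samples for its experiments in general, without saying that the RNA libraries of a group came from separate animals. If they did not, p-values measure only the spread between these libraries.

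MHC class II molecules are heterodimers of an alpha and a beta chain that carry peptides from endosomes to the cell surface, where CD4+ T cells read them. Dendritic cells, B cells and activated macrophages are the main cells that make them. New chains bind the invariant chain, which is cut down by endosomal proteases to a fragment that the H2-DM dimer exchanges for peptide. Transcription of the genes for the chains, the invariant chain and H2-DM depends on the coactivator CIITA. It is recruited by factors bound to X and Y boxes in their promoters and is itself induced by interferon gamma. H2-Aa and H2-Ab1 encode the alpha and beta chains of the I-A molecule. H2-Eb1 encodes the beta chain of I-E, whose alpha chain gene is not functional in C57BL/6 mice. Cd74 encodes the invariant chain, H2-DMa and H2-DMb1 the chains of H2-DM, and Ciita the coactivator.

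Because the promoter boxes are what the class II genes share by textbook, the promoters were searched for their letters in RefSeq sequence (GRCm38.p6). The table's entries matched 4 of the 7 genes, H2-Aa, H2-Eb1, H2-DMa and H2-DMb1. H2-Ab1, Cd74 and Ciita were not matched. The pair below shows one promoter that matched both sets of letters searched and one that matched the Y letters alone. Each line gives bases 120 to 21 before the transcription start, 5′ to 3′ on the gene's strand, with matches to the X letters (AGNNACNGA) and the Y letters (CTGATTGG) in capitals. The stretches are chr17:34305747-34305846 on the plus strand for H2-Eb1 and chr17:34287844-34287943 on the minus strand for H2-Aa.
H2-Eb1: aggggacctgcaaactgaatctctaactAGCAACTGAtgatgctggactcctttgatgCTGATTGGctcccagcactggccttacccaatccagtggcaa
H2-Aa: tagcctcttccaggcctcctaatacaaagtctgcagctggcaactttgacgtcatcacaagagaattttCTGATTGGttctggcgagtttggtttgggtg

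In H2-Eb1 the X match started at base -92 and the Y match at base -62. The inverted CCAAT core of a Y box (ATTGG) started at base -59 within that Y match, 33 bases after the X match. In H2-DMb1 an X match, AGTAACTGA, started at base -95 and a CCAAT core at base -61, 34 bases further on. H2-Aa held the Y letters at base -51 and no match to the X letters. H2-DMa, with 2 starts in the table, held only a CCAAT core at base -198 of the second. Searched on both strands in all 32851 promoters of the table, the X letters were found in 17.7% and the Y letters, which contain the CCAAT core, in 4.1%. The CCAAT core alone was found in 37.4%. An X match followed on the same strand by a CCAAT core at most 40 bases downstream was found in 68 promoters (0.207%), a spacing set after the matches had been seen. Among the class II genes those 68 included H2-Eb1, H2-DMb1 and H2-Eb2. A match is a description of the letters and not a bound site.

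On GRCm38 (GENCODE vM21), 5 of the 7 genes lie in the class II region of chromosome 17, which is gene-dense. H2-DMa spans chr17:34119541-34139101 and H2-DMb1 chr17:34153072-34160230, both on the plus strand. H2-Ab1 spans chr17:34257689-34269419 on the plus strand, H2-Aa chr17:34282744-34287823 on the minus strand and H2-Eb1 chr17:34305867-34316674 on the plus strand. Ciita lies outside this region, at chr16:10480059-10528418 on the plus strand. All values are for whole genes, exons only. H2-DMb1 shared 11.3% of its exonic 100-base words with its neighbour H2-DMb2, so its counts are uncertain to the extent that reads were divided between them. The other 6 genes shared no such word with any other gene.

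Library totals ran from 6057756 to 21537070 counts with a median of 9087417. The library of mature 2dpr replicate 3 stood apart, with 6990 of the 21204 genes at 0 counts against 381 to 2136 in the other 38. In it H2-Ab1 was at 59.5 CPM, counts scaled by the TMM-normalised library size, against 167, 238 and 268 CPM in its group, and the B cell genes Cd79a, Pax5 and Blk were at 0, while Ms4a1 and Cd79b, 6.44 and 8.55 CPM, were the highest of its group and Cd22 was at 9.77 CPM. Results that rest on it are therefore given with and without it. As a check of the labelled tissue, the summed level of 20 skeletal muscle genes was 48873 to 264989 CPM at baseline and 0dpr and 15981 to 50226 CPM later. That of 6 bone genes was 1595 to 27058 CPM, with no bone marker at 0 in any library. The skeletal muscle share thus moved with stage, and its values are given beside most of the comparisons over stages.

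Per length, Cd74 was the most abundant of the 7 genes and Ciita the least. In immature mice at 14dpr the means per kilobase of exon were 410.0 ± 25.5 CPM for Cd74 (SD, n = 4), 135 ± 9.0 for H2-Eb1, 118 ± 8.25 for H2-Ab1 and 109 ± 11.6 for H2-Aa. H2-DMb1 followed at 24.8 ± 1.47 CPM per kilobase, H2-DMa at 10.5 ± 1.67 and Ciita at 2.76 ± 0.358. Cd74 was highest and Ciita lowest in each of the 10 groups by the group means. Per kilobase H2-Aa and H2-Ab1 did not differ beyond their spread at 14dpr in either age, with 112 ± 15.6 and 112 ± 5.23 in mature mice. This rests on the exon lengths used, 3798 bases for H2-Aa and 2568 for H2-Ab1. In CPM, H2-Aa lay above H2-Ab1 at 14dpr, at 358 to 455 against 278 to 322 in immature libraries. In mature libraries the ranges were 363 to 505 and 270 to 302 CPM. The order of genes per kilobase thus depends on the lengths. The counts behind the values were 607 to 7136 for H2-Aa and 45 to 1010 for Ciita, so Ciita was measured with the least precision.

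**Figure D1:**
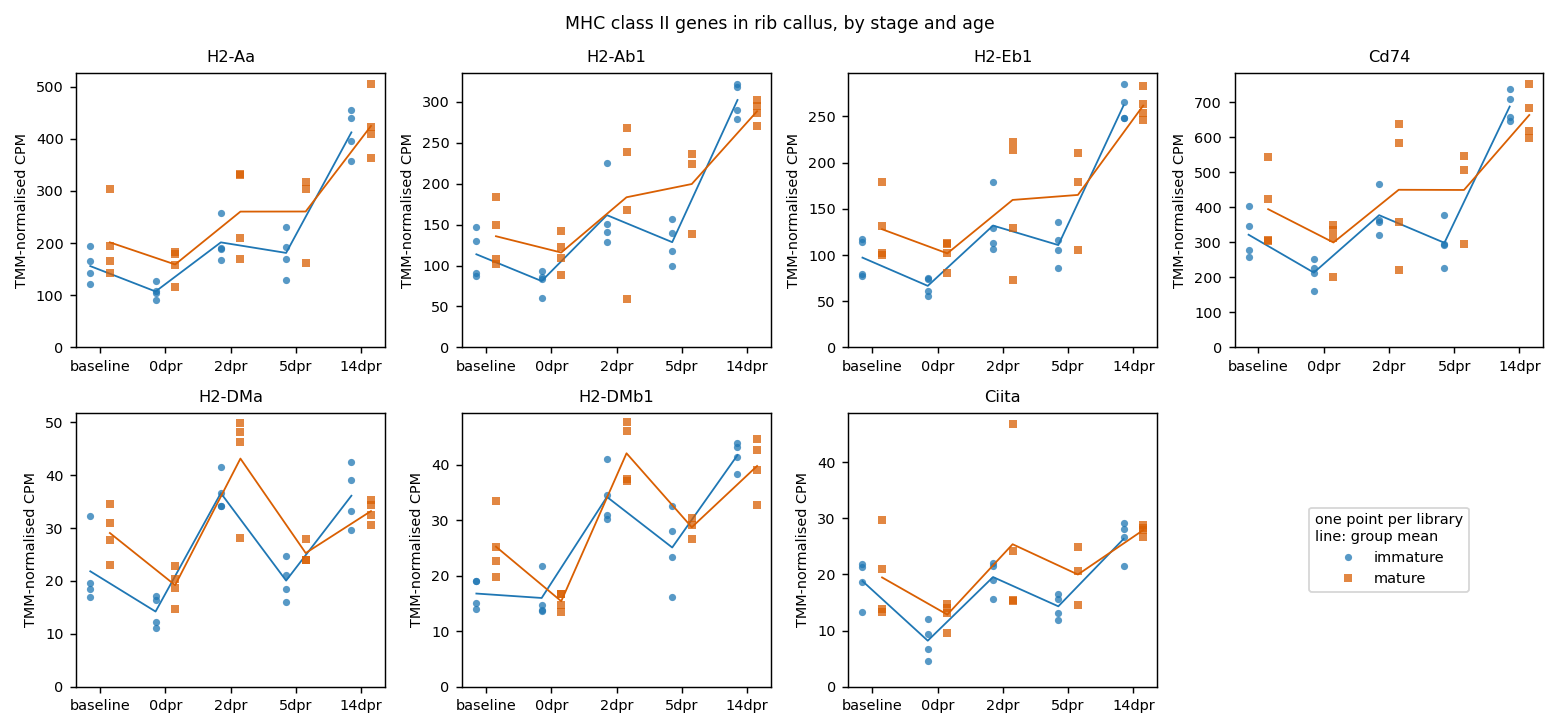
TMM-normalised CPM of each of the 7 genes by stage (BL, 0, 2, 5 and 14dpr), with immature and mature libraries as points and the group mean as a line. The chain genes and Cd74 were lowest around 0dpr and highest at 14dpr in both ages, whereas H2-DMa and H2-DMb1 were about as high at 2dpr as at 14dpr.

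H2-Aa is described first, as the alpha chain of I-A. At baseline its level was 121, 143, 166 and 194 CPM in immature libraries and 142, 166, 194 and 303 CPM in mature libraries. At 0dpr it was 90.7, 104, 108 and 127 CPM in immature and 115, 158, 179.9 and 183 CPM in mature libraries. At 2dpr it was 167, 189, 191 and 258 CPM in immature and 169, 209.9, 330.1 and 333 CPM in mature libraries. In immature mice no library at 0dpr reached any library at 2dpr, and in mature mice the stages overlapped. At 5dpr H2-Aa was at 129.9, 170.3, 193 and 231 CPM in immature and at 161, 303 and 317 CPM in mature libraries. At 14dpr it was at 358, 396, 439.7 and 455 CPM in immature and at 363, 408, 422 and 505 CPM in mature libraries. All 8 libraries at 14dpr thus lay above the 31 others.

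H2-Ab1 and H2-Eb1, the beta chains, followed the same course. In immature mice H2-Ab1 was at 60.2, 83.8, 86.4 and 93.8 CPM at 0dpr, 129, 141, 150.4 and 226 CPM at 2dpr and 278, 290.1, 318 and 322 CPM at 14dpr. In mature mice it was at 88.9, 109.7, 123 and 142 CPM at 0dpr, 59.5, 167, 238 and 268 CPM at 2dpr and 270.4, 287, 295 and 302 CPM at 14dpr. The lowest mature value at 2dpr belongs to replicate 3. For H2-Eb1 the immature libraries were at 55.7 to 75.6 CPM at 0dpr and 248 to 285 CPM at 14dpr. The mature libraries were at 80.3 to 113 CPM at 0dpr and 246 to 283 CPM at 14dpr, so the ages were apart at 0dpr and together at 14dpr.

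Cd74, the invariant chain, was at 259.5, 278, 346 and 405 CPM in immature libraries at baseline and at 161, 214, 226 and 254 CPM at 0dpr. It was at 320.1, 359.6, 365 and 467 CPM at 2dpr, at 227, 294, 296 and 379 CPM at 5dpr and at 648, 658, 711 and 737 CPM at 14dpr. The lowest library at 14dpr was above the highest of any other immature stage. In mature libraries Cd74 was at 304, 307, 425 and 545 CPM at baseline and at 202, 313, 335 and 349 CPM at 0dpr. It was at 221, 359, 584 and 638 CPM at 2dpr, at 295, 507 and 548 CPM at 5dpr and at 598, 619, 686 and 754 CPM at 14dpr. Here 1 library at 2dpr, replicate 1, lay within the range of 14dpr.

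H2-DMa and H2-DMb1 encode the peptide exchange factor. By group means, H2-DMa in both ages and H2-DMb1 in mature mice had a different order of stages from H2-Aa. In immature mice H2-DMb1 had the same order of stages as H2-Aa. H2-DMa was at 11.1, 12.3, 16.4 and 17.1 CPM at 0dpr in immature libraries, at 34.1, 34.1, 36.7 and 41.6 CPM at 2dpr and at 16.0, 18.4, 21.2 and 24.7 CPM at 5dpr. At 14dpr it was at 29.6, 33.3, 39.0 and 42.5 CPM, a range that holds that of 2dpr. In mature libraries it was at 14.7, 18.7, 20.5 and 22.9 CPM at 0dpr, at 28.1, 46.3, 48.2 and 49.9 CPM at 2dpr, at 23.9, 24.1 and 27.9 CPM at 5dpr and at 30.6, 32.5, 34.4 and 35.3 CPM at 14dpr. In both ages no library at 5dpr reached any library at 2dpr. H2-DMb1 was at 13.6 to 21.8 CPM at 0dpr, 30.3 to 40.9 CPM at 2dpr and 38.3 to 43.9 CPM at 14dpr in immature libraries, and at 13.5 to 16.7, 37.1 to 47.7 and 32.8 to 44.7 CPM in mature libraries.

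Ciita, the coactivator, was the least abundant of the 7 per kilobase. In immature libraries it was at 13.3, 18.7, 21.3 and 21.9 CPM at baseline, 4.55, 6.72, 9.46 and 12.1 CPM at 0dpr and 15.6, 19.1, 21.5 and 22.0 CPM at 2dpr. It was at 11.9, 13.2, 15.7 and 16.6 CPM at 5dpr and 21.5, 26.7, 28.0 and 29.2 CPM at 14dpr. The 0dpr libraries did not overlap with baseline, 2dpr or 14dpr, and the highest of them lay just above the lowest library at 5dpr. In mature libraries Ciita was at 9.58 to 14.7 CPM at 0dpr, 15.2, 15.4, 24.1 and 46.7 CPM at 2dpr and 26.7 to 28.7 CPM at 14dpr. The value of 46.7 CPM, in replicate 4, was the highest of all 39 libraries.

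The first comparison asks how the genes stood right after resection against baseline. In immature mice 2 of the 7 fell, Ciita by 1.21 (SE 0.29) on the log2 scale and H2-DMa by 0.62 (SE 0.19), with adjusted p of 0.00881 and 0.0355 by edgeR's quasi-likelihood test, adjusted over all genes. Over all genes 4.66% were lower at this step. The 3 chain genes and Cd74 had log2 fold changes of -0.49 to -0.59 with adjusted p of 0.109 to 0.257, and H2-DMb1 was at -0.07 (SE 0.18). In mature mice 2 of 7 fell as well, H2-DMb1 by 0.71 (SE 0.18) and H2-DMa by 0.60 (SE 0.19), with edgeR adjusted p of 0.00399 and 0.0213, where 10.6% of all genes were lower. Ciita was at -0.60 (SE 0.29) in mature mice, with an adjusted p of 0.131. In bulk tissue fewer cells of a type and less RNA per cell cannot be told apart. Over the same step 4 of the 5 pan-leukocyte genes fell in immature and 5 of 5 in mature mice, and the immature fall of both genes was lost without immature 0dpr replicate 3, where 0 of the 7 passed. The summed muscle level did not overlap between the stages, with 90251 to 116573 CPM at baseline and 126953 to 232609 CPM at 0dpr in immature mice, and 48873 to 94653 and 131346 to 264989 CPM in mature mice. With it as a covariate 1 of the 7 passed in immature mice, Ciita, and 0 in mature mice, and with only the compared libraries 0 passed in immature mice. The test of the difference between ages in this step gave 0 of 7 genes by edgeR, where 0.0141% of all genes were called. At an unadjusted p under 0.05, for which no share of all genes is given, there was 1 of the 7. That gene was H2-DMb1, whose change from baseline was higher in immature than mature mice by 0.64 (SE 0.25) on the log2 scale, adjusted p 0.534.

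Between 0 and 2dpr all 7 genes rose in both ages. In immature mice, where 21.8% of all genes were higher, H2-DMa rose by 1.36 (SE 0.19) on the log2 scale, 2.57-fold, with an edgeR adjusted p of 4.32e-07. Ciita rose by 1.26 (SE 0.29) and H2-DMb1 by 1.10 (SE 0.18), and the chain genes and Cd74 by 0.82 to 1.00 with adjusted p of 0.00118 to 0.00582. The groups did not overlap for any of the 7, and the share of all genes without overlap is not given. In mature mice, where 22.7% of all genes were higher, H2-DMb1 rose by 1.45 (SE 0.18), 2.73-fold, and H2-DMa by 1.17 (SE 0.19), with edgeR adjusted p of 2.38e-08 and 3.86e-06. Ciita rose by 0.99 (SE 0.28), adjusted p 0.00416. For the mature chain genes and Cd74 the changes were 0.59 to 0.71, the adjusted p were 0.0104 to 0.0435 and the groups overlapped. With RLE scaling, DESeq2, the filterByExpr filter or the replicate number as a block, H2-Ab1 and Cd74 did not pass in mature mice, with adjusted p of 0.0534 to 0.081, and 5 of the 7 did. With only the compared libraries 3 of the 7 passed in mature mice, H2-Aa, H2-DMa and H2-DMb1. Without mature 2dpr replicate 3 these changes were 0.81 to 0.96 and all 7 genes passed. Without mature 2dpr replicate 1, mature 2dpr replicate 4 or mature 0dpr replicate 1, 3 of the 7 passed, and without mature 0dpr replicate 3, 4. The median over the 7 genes was 1.00 in immature and 0.71 in mature mice, against -0.04 and -0.05 over all genes tested. The test of the difference between ages in this step gave 0 of 7 genes by edgeR, none with an unadjusted p under 0.05, where 0.0613% of all genes were called.

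**Figure D2:**
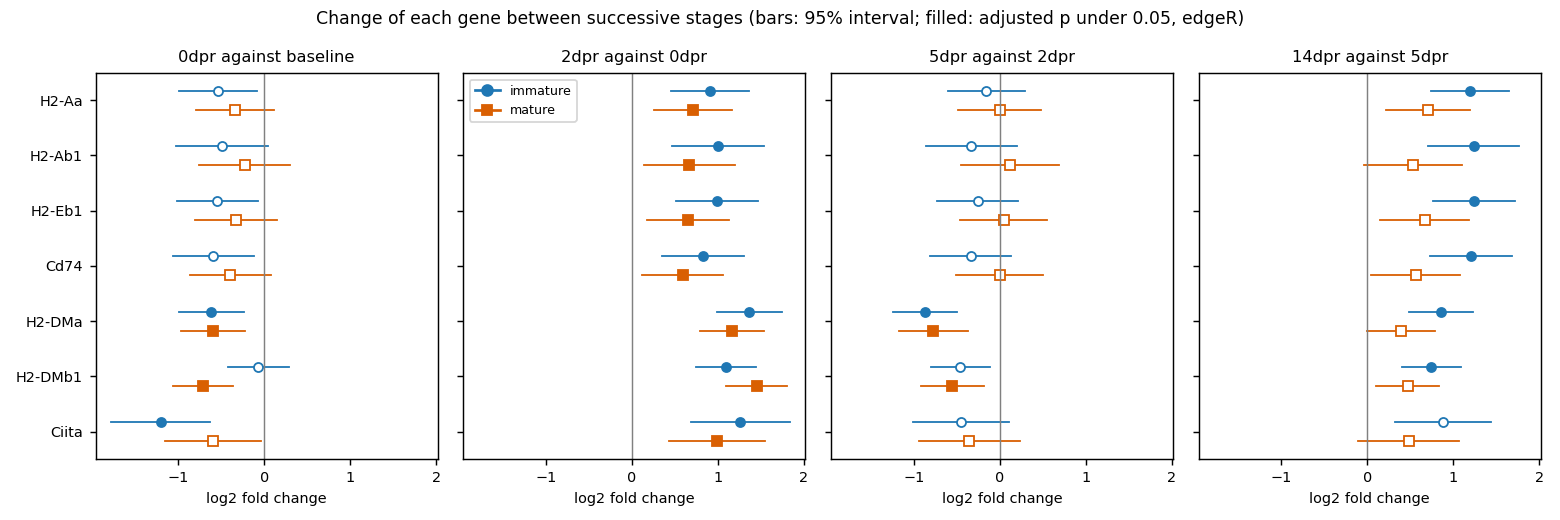
Log2 fold change of each of the 7 genes for successive stages in immature and mature mice, with bars of the 95% confidence interval and filled points where the edgeR adjusted p was under 0.05. The step from 0 to 2dpr has 7 filled points in each age, and the step from 5 to 14dpr has 6 in immature and 0 in mature mice.

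The composition of the tissue moved strongly over the same step. The 20 skeletal muscle genes all fell in both ages, and their summed level was 126953 to 232609 CPM at 0dpr and 19092 to 30988 CPM at 2dpr in immature mice. In mature mice it was 131346 to 264989 CPM and then 15981 to 31716 CPM. All 9 macrophage markers rose in both ages, where 21.8% of all genes were higher in immature and 22.7% in mature mice. Cd68 rose by 3.95 (SE 0.23) in immature and 3.63 (SE 0.23) in mature mice. Of the 7 B cell markers 6 fell in each age, where 22.2% and 24.9% of all genes were lower. Of the 8 dendritic cell markers 1 rose and 3 fell in mature mice, and 1 and 2 without mature 2dpr replicate 3. Their summed level was 40.4 to 55.3 CPM at 0dpr and 79.6 to 124 CPM at 2dpr in immature mice. In mature mice it was 59.1 to 65.7 CPM and then 76.0 to 118 CPM. With the mean log2 CPM of the muscle genes as a covariate, 0 of the 7 genes passed in either age. Their log2 fold changes were then 0.71 to 1.55 in immature and 0.45 to 1.33 in mature mice. The summed muscle level did not overlap between the stages, so muscle share and stage cannot be told apart.

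From 2 to 5dpr, H2-DMa fell by 0.87 (SE 0.19) on the log2 scale in immature and by 0.77 (SE 0.20) in mature mice, with edgeR adjusted p of 0.0024 and 0.00825. It was the only 1 of the 7 to fall in immature mice, where 3.68% of all genes were lower. In mature mice H2-DMb1 fell too, by 0.55 (SE 0.19) with an adjusted p of 0.0432, where 6.38% of all genes were lower. In immature mice H2-DMb1 was at -0.46 (SE 0.17), adjusted p 0.109, and passed without immature 5dpr replicate 3. The mature H2-DMa and H2-DMb1 calls were both lost with only the compared libraries, where H2-DMa was at -0.78 with an adjusted p of 0.105, and with the muscle level as a covariate, where it was at -0.72 with an adjusted p of 0.0578. The mature fall of 2 genes became 1 gene with the replicate number as a block, and also without any 1 of mature 2dpr replicate 1, mature 2dpr replicate 4 and the 3 mature 5dpr libraries. The other genes passed in neither age. Over this step the summed pan-leukocyte level was 1635 to 1991 CPM at 2dpr and 879.8 to 1216 CPM at 5dpr in immature mice, and 1856 to 2182 and 977 to 1212 CPM in mature mice. Relative to it H2-DMa differed by -0.13 in immature and 0.12 in mature mice on the log2 scale, with exact two-sided permutation p of 0.4 and 0.657 that were adjusted to 0.528 and 0.748 over 91 tests. The test of the difference between ages in this step gave 0 of 7 genes by edgeR, none with an unadjusted p under 0.05 and with 0% of all genes called.

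From 5 to 14dpr, 6 of the 7 genes rose in immature mice, where 1.73% of all genes were higher. H2-Eb1 rose by 1.24 (SE 0.24) on the log2 scale, 2.37-fold, H2-Ab1 by 1.23 (SE 0.27), Cd74 by 1.20 (SE 0.24) and H2-Aa by 1.19 (SE 0.23), with edgeR adjusted p of 0.00158 to 0.00601. H2-DMa rose by 0.85 (SE 0.19) and H2-DMb1 by 0.74 (SE 0.17), with adjusted p of 0.00638 and 0.0107. The H2-DMb1 call was lost with the replicate number as a block (0.71, adjusted p 0.0507) and without immature 5dpr replicate 4 (0.58), and 5 of the 7 then passed. The summed muscle level did not overlap over this step in immature mice. It was 31106 to 41592 CPM at 5dpr and 16475 to 27960 CPM at 14dpr. With the mean log2 CPM of the muscle genes as a covariate 6 of the 7 passed. Ciita was at 0.88 (SE 0.28) with an adjusted p of 0.084 and groups that did not overlap, and it passed by DESeq2 and with only the compared libraries. The median over the 7 genes was 1.19, against -0.02 over all genes tested. In mature mice 0 of the 7 passed by edgeR, where 1.95% of all genes were higher. There 4 had an unadjusted p under 0.05, a threshold for which no share of all genes is given. DESeq2 called 1 of the 7, and edgeR on the libraries of those 2 stages alone called 5. Over all genes and both directions these settings called 1386 and 2589 genes, against 886 in the main fit. The mature log2 fold changes were 0.39 to 0.70, led by H2-Aa at 0.70 (SE 0.25) with an adjusted p of 0.106. For all 7 genes the mature 14dpr libraries lay above the 5dpr libraries. The share of all genes without overlap is not given, so that count has no background.

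The difference between ages in the rise from 5 to 14dpr was tested directly. For H2-Ab1 the immature change was higher than the mature by 0.70 on the log2 scale (95% confidence interval -0.07 to 1.48). For Cd74 it was higher by 0.64 (-0.05 to 1.33), for H2-Eb1 by 0.58 (-0.11 to 1.27) and for H2-Aa by 0.48 (-0.17 to 1.14). By edgeR 0 of the 7 passed, none had an unadjusted p under 0.05, and 0% of all genes were called. A larger rise in immature mice was therefore not shown, and the intervals for these 4 genes run from just below 0 to above 1.

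Against baseline, 14dpr was higher for 6 of 7 genes in immature and 5 of 7 in mature mice, where 16.4% and 17.1% of all genes were higher. In immature mice H2-Eb1 was higher by 1.43 (SE 0.24) on the log2 scale, H2-Ab1 by 1.41 (SE 0.27), H2-Aa by 1.40 (SE 0.23) and H2-DMb1 by 1.31 (SE 0.18), the last with an edgeR adjusted p of 3.95e-07. In mature mice H2-Ab1 was higher by 1.09 (SE 0.27), H2-Aa by 1.08 (SE 0.23) and H2-Eb1 by 1.03 (SE 0.24), with edgeR adjusted p of 0.000341 to 0.00178. Ciita did not pass in either age, with 0.48 (SE 0.28) and 0.52 (SE 0.28). The summed muscle level was 90251 to 116573 CPM at baseline and 16475 to 27960 CPM at 14dpr in immature mice, and 48873 to 94653 and 21670 to 38446 CPM in mature mice. With the mean log2 CPM of the muscle genes as a covariate 3 of the 7 passed in each age. They were H2-Aa, H2-Eb1 and H2-DMb1 in immature and H2-Aa, H2-Ab1 and H2-Eb1 in mature mice. H2-DMa passed in immature mice at 0.73 (SE 0.19) and not in mature mice at 0.19 (SE 0.19), a difference between ages that was not tested.

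Levels at 2 and 14dpr were then set against each other. This comparison was chosen after seeing the data. The surface chains and Cd74 were higher at 14dpr in immature mice, H2-Aa by 1.03 (SE 0.23) on the log2 scale, H2-Eb1 by 0.99 (SE 0.24), H2-Ab1 by 0.90 (SE 0.27) and Cd74 by 0.86 (SE 0.24), with edgeR adjusted p of 0.00149 to 0.0182. These 4 of 7 stood beside 8.5% of all genes. In mature mice H2-Eb1 and H2-Aa, 2 of 7, were higher by 0.71 (SE 0.24) and 0.70 (SE 0.23), beside 12.7% of all genes. None of the 7 passed in mature mice without 2dpr replicate 3 or without 14dpr replicate 4. H2-DMa was at -0.38 (SE 0.19) in mature mice with an adjusted p of 0.14, and neither H2-DM chain nor Ciita passed in either age.

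The ages were compared at each stage. By edgeR 0 of the 7 genes passed at any of the 5 stages, where 0.585% of all genes were called at baseline, 0.726% at 0dpr, 0.627% at 2dpr, 0% at 5dpr and 0.00943% at 14dpr. Of the 7 genes, 2 had an unadjusted p under 0.05 at baseline, 4 at 0dpr, 0 at 2dpr, 4 at 5dpr and 0 at 14dpr. Those counts cannot be set against the shares above, which are for adjusted p. The share of all genes at the unadjusted threshold is not given. DESeq2 called 1 of the 7 at baseline, where it called 334 of 21204 genes, and none at the other stages. The median log2 difference, immature against mature, was -0.37, -0.52, -0.28, -0.53 and 0.05 in the order of the stages. At baseline H2-DMb1 was lower in immature mice by a log2 difference of -0.59 (SE 0.18, edgeR adjusted p 0.129), and the 4 immature libraries lay below the 4 mature ones. At 0dpr H2-Eb1 had a difference of -0.61 (SE 0.24, adjusted p 0.294), again with no overlap. At 5dpr H2-Ab1 had a difference of -0.64 (95% confidence interval -1.20 to -0.07, adjusted p 0.928) with overlapping groups. At 14dpr the 95% confidence intervals of all 7 genes held 0, and for H2-Eb1 the interval was -0.47 to 0.47.

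**Figure D3:**
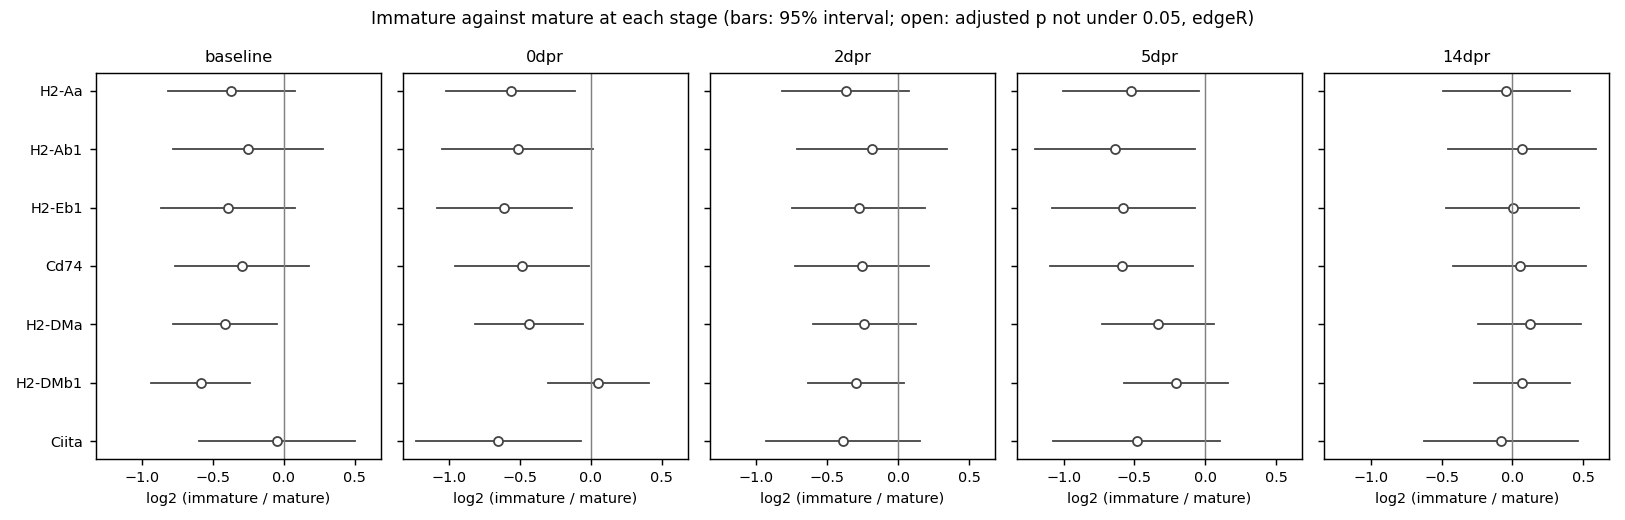
Log2 difference between immature and mature mice for each of the 7 genes at each stage, with bars of the 95% confidence interval. No gene passed an adjusted p of 0.05, and the points lie mostly below 0 up to 5dpr and around 0 at 14dpr.

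The other class II chains in the table were H2-Eb2, H2-Oa, H2-Ob and H2-DMb2, and no test compared them with the 7 genes. H2-Oa and H2-Ob encode the H2-O dimer, an inhibitor of H2-DM that is best known from B cells. In immature mice the means of H2-Ob were 23.1 CPM at baseline, 6.97 at 0dpr, 3.89 at 2dpr, 2.11 at 5dpr and 8.44 at 14dpr. In mature mice they were 14.3, 12.2, 3.48, 3.55 and 5.04 CPM. At 14dpr against baseline 0 of these 4 chains were higher, and 1 was lower in immature and 3 in mature mice, where 15.1% and 16.4% of all genes were lower. H2-Ob fell by 1.45 (SE 0.38) and 1.5 (SE 0.39) on the log2 scale. From baseline to 0dpr all 4 fell in immature mice, H2-Eb2 by 3.50 (SE 0.77), H2-Oa by 1.74 (SE 0.54), H2-Ob by 1.73 (SE 0.38) and H2-DMb2 by 1.58 (SE 0.51), and 0 of 4 passed in mature mice, where 4.66% and 10.6% of all genes were lower. H2-Eb2 had 0 to 4 counts in the immature 0dpr libraries. The test of the difference between ages in this step gave 0 of the 4 by edgeR, with adjusted p of 0.431 to 0.721. At an unadjusted p under 0.05, for which no share of all genes is given, there were 3. Between 0 and 2dpr H2-Eb2, a beta chain gene next to H2-Eb1, rose by 3.27 (SE 0.77) in immature mice, from a mean of 0.195 to 1.91 CPM, while in mature mice H2-Oa fell by 1.39 (SE 0.53) and H2-Ob by 1.79 (SE 0.39). Without mature 2dpr replicate 3, 1 of the 4 fell. H2-Ob rose in immature mice by 2.01 (SE 0.41) from 5 to 14dpr and by 1.11 (SE 0.39) from 2 to 14dpr. It was the only chain of the 4 to pass in either step, where 1.73% and 8.5% of all genes were higher. None passed in mature mice. Without mature 2dpr replicate 3, where H2-Eb2, H2-Oa and H2-DMb2 had 0 counts, 1 of the 4 fell from 2 to 14dpr in mature mice. The 7 B cell markers had a median summed level in immature mice of 212 CPM at baseline, 95.8 at 0dpr, 31.8 at 2dpr, 23.1 at 5dpr and 81.4 at 14dpr, and of 147, 112, 25.0, 22.3 and 53.4 CPM in mature mice. The means of H2-Oa in the same order were 4.74, 1.41, 1.43, 1.02 and 2.56 CPM in immature and 4.49, 2.99, 1.08, 1.19 and 1.34 CPM in mature mice. The part of B cells in the levels of these chains was not tested.

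**Figure D4:**
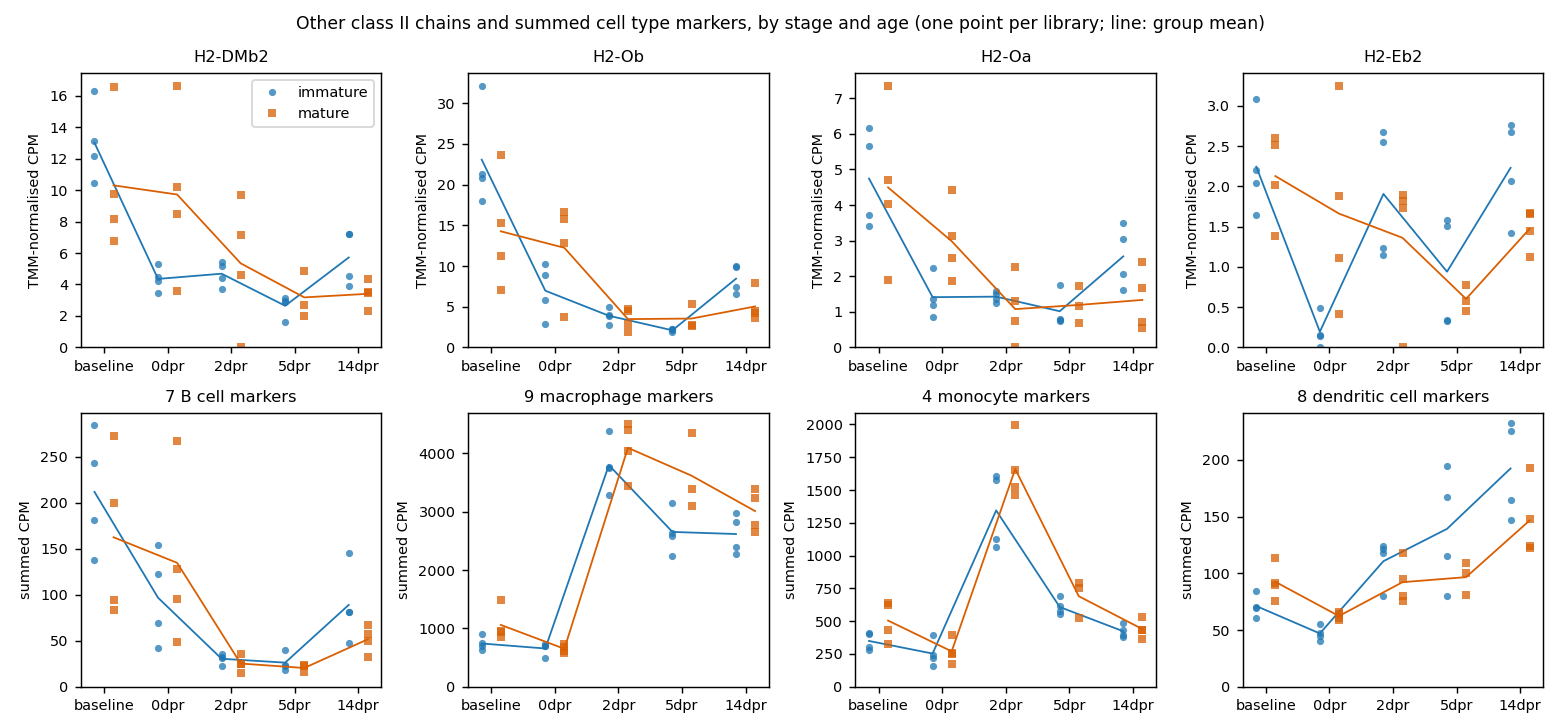
TMM-normalised CPM of the other class II chains and summed CPM of B cell, macrophage, monocyte and dendritic cell markers by stage, with immature and mature libraries as points and the group mean as a line. H2-Oa, H2-Ob and the B cell markers were highest at baseline, whereas the macrophage and monocyte markers were highest at 2dpr.

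Genes that act on class II molecules in the endosome were highest at 2dpr. All 6 genes of this list (Ctss, Ctsl, Ctsb, Ctsd, Lgmn and Ifi30) rose from 0 to 2dpr in both ages. At that step 21.8% of all genes were higher in immature and 22.7% in mature mice. Ctss, the cathepsin that cuts the invariant chain, rose by 4.71 (SE 0.25) in immature and 4.37 (SE 0.25) in mature mice on the log2 scale. Lgmn, an asparaginyl endopeptidase, rose by 3.84 (SE 0.18) and 3.96 (SE 0.18). From 2 to 14dpr all 6 fell in both ages, Ctss by 0.92 (SE 0.22) and 1.02 (SE 0.22), where 7.7% and 12% of all genes were lower. Over that span none of the 7 class II genes fell in either age, and 4 rose in immature and 2 in mature mice, where 8.5% and 12.7% of all genes were higher. In mature mice 0 rose without mature 2dpr replicate 3, with only the compared libraries or with the muscle level as a covariate. The means of Ctss were 1578 and 1717 CPM at 2dpr and 834 and 845 CPM at 14dpr.

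Of the 7 transcription genes (Rfx5, Rfxap, Rfxank, Creb1, Nfya, Nfyb and Nfyc), which encode the factors that bind the X and Y boxes, 1 rose in immature mice from 0 to 2dpr, Nfya by 0.67 (SE 0.15). In mature mice Nfya rose by 0.83 (SE 0.16) and Nfyb and Nfyc fell by 0.56 (SE 0.15) and 0.56 (SE 0.16). Without mature 2dpr replicate 3, where Rfxank had 0 counts, 1 of the 7 rose and 3 fell. At this step 21.8% and 22.7% of all genes were higher in immature and mature mice, and 22.2% and 24.9% were lower. Rfx5, the factor that contacts the X box, stayed between means of 12.8 and 17.6 CPM in all 10 groups. The lowest of these means, in mature 2dpr, included 6.11 CPM in replicate 3. None of the 7 passed from 5 to 14dpr in either age. Of the 9 genes of the interferon gamma pathway 7 rose in immature and 8 in mature mice from 0 to 2dpr, beside 21.8% and 22.7% of all genes. Irf8 was among them, at 1.70 (SE 0.22) and 1.18 (SE 0.22). Ifng itself, the ligand, had group means of 0 to 0.255 CPM, and 0 of the 9 passed from 5 to 14dpr in either age.

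Costimulatory and class I genes also rose from 0 to 2dpr, where 21.8% of all genes were higher in immature and 22.7% in mature mice. Cd40, Cd86 and Cd80, which give the second signal to T cells, rose from 0 to 2dpr in both ages, with Cd40 at 2.27 (SE 0.25) and 2.69 (SE 0.25). March1, a ubiquitin ligase that sends class II molecules and CD86 to degradation, rose by 1.82 (SE 0.25) and 1.85 (SE 0.25). Of the 9 class I pathway genes 9 rose in immature and 8 in mature mice from 0 to 2dpr, among them the class I heavy chain gene H2-K1 by 1.06 (SE 0.15) and 0.95 (SE 0.15). From 5 to 14dpr, of the 5 costimulation and turnover genes, 0 passed in immature mice and 1 in mature mice, Cd80 at 1.47 (SE 0.40). Over the same step 0 of the 9 class I genes passed in either age, with medians of -0.02 and -0.15, against 1.19 and 0.53 for the 7 class II genes. From 2 to 14dpr 3 of the 9 class I genes fell in immature and 5 in mature mice, where 7.7% and 12% of all genes were lower and 6 fell in mature mice without mature 2dpr replicate 3. Nlrc5, the counterpart of Ciita, fell by 0.83 (SE 0.24) and 0.79 (SE 0.23). No test compared the lists with each other.

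Markers of the cell types that make class II molecules were counted for the step from 5 to 14dpr. Of the 7 B cell markers 5 rose in immature and 2 in mature mice, where 1.73% and 1.95% of all genes were higher. Cd79b was among them, at 2.34 (SE 0.50) and 2.04 (SE 0.56). None of the 9 macrophage markers passed in either age, and their summed level was 2243 to 3151 CPM at 5dpr and 2271 to 2976 CPM at 14dpr in immature mice. Of the 8 dendritic cell markers 1 passed in immature mice, Cd209a at 1.66 (SE 0.44), and 0 in mature mice. Their summed level was 80.2 to 194 CPM at 5dpr and 147 to 232 CPM at 14dpr in immature, and 80.7 to 109 and 122 to 192 CPM in mature mice. The part of these cell types in the rise of the class II genes was not tested. Against baseline, 3 of the 7 B cell markers were lower at 14dpr in immature and 6 in mature mice, where 15.1% and 16.4% of all genes were lower. H2-Aa, H2-Ab1 and H2-Eb1 were higher over the same span. The macrophage sums were 623 to 907 CPM at baseline and 2271 to 2976 CPM at 14dpr in immature, and 852 to 1483 and 2646 to 3388 CPM in mature mice. The dendritic cell sums at baseline were 60.7 to 84.2 CPM in immature and 75.7 to 113 CPM in mature mice, below those at 14dpr with no overlap.

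To set the genes against the leukocytes in each library, each was divided by the summed CPM of 5 pan-leukocyte genes. For Cd74 this percentage was 33.7, 50.8, 53.6 and 67.1 at 0dpr, 17.9, 18.3, 20.0 and 28.6 at 2dpr, 24.2, 25.8, 28.5 and 32.0 at 5dpr and 57.5, 57.7, 62.1 and 62.9 at 14dpr in immature libraries. In mature libraries it was 39.8, 53.3, 66.1 and 71.8 at 0dpr, 11.8, 19.4, 26.8 and 32.1 at 2dpr, 27.2, 41.9 and 56.1 at 5dpr and 53.3, 54.1, 54.8 and 66.4 at 14dpr. Relative to leukocyte genes Cd74 was therefore lower at 2 than at 0dpr, whereas its own CPM was higher. The immature ratio at 14dpr lay above that at 5dpr for each of the 7 genes, by 0.68 to 1.16 on the log2 scale, with an exact two-sided permutation p of 0.0286 each, the smallest that 4 against 4 libraries allow. Adjusted over the 91 such tests, 0 passed and the lowest adjusted p was 0.153. With 91 tests and this smallest p, 17 were at 0.0286. They included H2-Aa, H2-DMb1, Cd74 and Ciita in immature and H2-Aa, H2-Ab1, H2-Eb1 and Cd74 in mature mice, each lower at 2 than at 0dpr. In mature mice the ratios at 14dpr were above those at 5dpr by 0.30 to 0.66 on the log2 scale, with H2-Aa at an exact p of 0.0286 and the others at 0.0571 to 0.2.

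**Figure D5:**
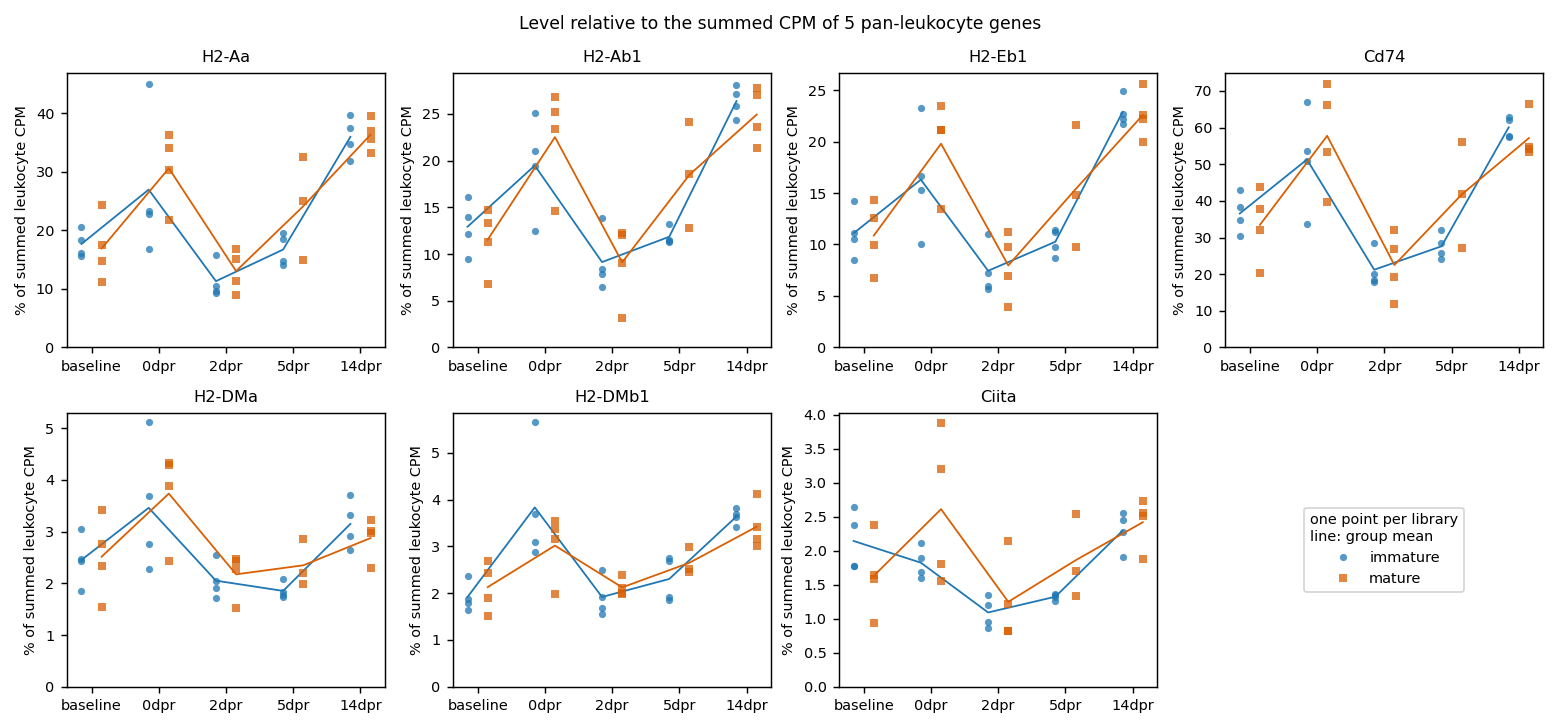
CPM of each of the 7 class II genes as a percentage of the summed CPM of 5 pan-leukocyte genes in each library, by stage and age, with the group mean as a line. For Cd74 the immature libraries at 14dpr, 57.5 to 62.9%, lie above all immature libraries at 2 and 5dpr.

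Among themselves the 7 genes varied together from library to library. After the group means had been taken out, the correlation across 39 libraries was highest for Cd74 and H2-Eb1 (Pearson's r 0.966) and lowest for H2-Ab1 and H2-DMa (0.468). Libraries share depth and tissue composition, so these values describe the libraries and no more. By the same measure, the genes most like Ciita among 16140 genes outside the 7 were Fcrla at 0.746, Pax5 at 0.730 and H2-Ob at 0.714, and without mature 2dpr replicate 3 they were at 0.719, 0.701 and 0.689. Fcrla and Pax5 are expressed in B cells. For Cd74 the most alike gene outside the 7 was 1500002C15Rik at 0.761, and at 0.647 without that library. Il10ra, the interleukin 10 receptor chain, came next at 0.742, and was at 0.748 without that library. For H2-Ab1 the most alike gene outside the 7, Fbxw9, went from 0.817 to 0.600 without it. Over the 10 group means the genes outside the 7 most like H2-DMb1 were Acod1 (0.984), Traf1 (0.979) and Il1b (0.978), which are induced in activated myeloid cells. The most like Cd74 outside the 7 was Serpinb6b (0.959, against 0.990 for H2-Eb1), which was at 0.894 without mature 2dpr replicate 3, below Zfp319 at 0.938.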

How the data were processed

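Whole-tissue RNA was sequenced as paired-end reads of 150 bases from a stranded library kit. Per the labels and the submitters' processing notes, reads were aligned with STAR (2.5.2a) to GRCm38. The authors deposited a table of read counts per gene and a filtered table of a normalised signal, TMM-scaled CPM. The deposited signal equalled CPM recomputed from the deposited counts, with a largest relative difference of 4.99e-15. How the counting treated strand and reads with several matches is not given in the sources used here. The counts of the 21204 genes in the filtered table were used for every test.

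The 39 libraries were grouped by the labels, with 1 coefficient per group and TMM scaling in edgeR (4.0.16, with limma 3.58.1 and R 4.3.3). Quasi-likelihood tests gave the 17 comparisons of 2 groups and 4 tests of the difference between ages, adjusted by Benjamini-Hochberg over all 21204 genes at a threshold of 0.05. The comparison of 2 with 14dpr was chosen after seeing the data. Levels used for likeness were log2 CPM with a prior count of 2, over genes with a mean of at least 1 CPM. Ratios to 5 pan-leukocyte genes were compared by exact two-sided permutation tests, 91 in all. Values per kilobase used the summed exon length from GENCODE vM21. The fitting script was tested on simulated data.

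All 7 genes are named, and the pathway and marker lists hold 120 genes, of which 118 were tested. From a list, not every gene past the threshold is named. The members and lists were chosen with earlier results of these data known. No 2 libraries agreed within sampling noise, the lowest ratio of their difference to that noise being 7.00.

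Replicate numbers were checked for pairing. Samples with the same number had a mean correlation of deviations of -0.0188 over 59 pairs. At 0dpr every pair of immature and mature libraries was over 0.1 (4 pairs, mean 0.223), where the pairing comes from the replicate numbers in the labels and a shared source is not stated. The alternatives were DESeq2 (1.42.0), its size factors, other filters on low counts, the compared libraries alone, the replicate number as a block, the summed skeletal muscle level as a covariate and leaving out each library.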

Additional observations from a re-analysis of the deposited data

Results flagged for a closer look

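Of 63 groups of 4 libraries in which each gene's CPM was checked for a library far from the others, 1 stood out. H2-DMa was at 28.15 CPM in mature 2dpr replicate 2, against 46.3 to 49.9 CPM in the other 3 libraries of its group, a gap beyond Dixon's 95% critical value. Chance gives about 1 such group in 20.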

How the results depend on the processing

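Over 84 values recomputed 1283 times, 1176 kept their direction and their side of the threshold, 87 kept the direction and lost the threshold, 18 gained it and 2 turned. Of the 87 losses, 26 came with the skeletal muscle level as a covariate. The 2 that turned were H2-DMb1 in immature mice from baseline to 0dpr, at 0.037 without immature 0dpr replicate 3 and 0.025 without replicate 4, from -0.07, with a range of -0.30 to 0.037 over the libraries left out. With only the libraries compared, the number of the 7 genes passing was 0 in the immature and 2 in the mature step from baseline to 0dpr, 3 in the mature step from 0 to 2dpr, 0 in the mature step from 2 to 5dpr, 5 in the mature step from 5 to 14dpr and 0 in mature mice from 2 to 14dpr. With the muscle level as a covariate it was 1 and 0 from baseline to 0dpr in immature and mature mice, 0 in both from 0 to 2dpr, 0 in mature mice from 2 to 5dpr and from 2 to 14dpr, and 3 in both from baseline to 14dpr. DESeq2 called 1 gene between ages at baseline and 1 in the mature step from 5 to 14dpr, and with all genes of at least 1 count 1 gene passed in the mature step from 2 to 5dpr. The cause of these changes was not tested. The RLE scaling moved the median of all genes from 0 to 2dpr to -0.13 in both ages and, like DESeq2, filterByExpr and the replicate block, left 5 of 7 genes in the mature step from 0 to 2dpr.

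With the replicate number as a block, 1 gene passed in the mature step from 2 to 5dpr in place of 2, 5 in place of 7 in the mature step from 0 to 2dpr and 5 in place of 6 in the immature step from 5 to 14dpr. The block changed no other count of the 7 genes, and at 0dpr, where the numbers paired the ages, 0 passed with and without it. Leaving out each library in turn gave 0 to 2 of the 7 from baseline to 0dpr in immature and 1 to 2 in mature mice, where 1 remained without mature baseline replicate 1 or 2 or mature 0dpr replicate 1 or 3, and 1 without immature baseline replicate 2 or immature 0dpr replicate 1. From 0 to 2dpr it gave 7 in every immature and 3 to 7 in the mature fits, from 2 to 5dpr 1 to 2 in each age, from 5 to 14dpr 5 to 6 in immature mice, from baseline to 14dpr 6 in immature and 4 to 6 in mature mice, and from 2 to 14dpr 3 to 4 in immature and 0 to 4 in mature mice. In the last, 1 passed without mature 14dpr replicate 3 or 2dpr replicate 2, and 4 without 2dpr replicate 1 or 4. With a smallest p of 0.0286 over 91 tests, a ratio to leukocyte genes passes only if most tests reach it, so the count of 0 says nothing about stability.

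Counts over all genes moved more. Between ages, edgeR called 124, 154, 133, 0 and 2 genes in the order of stages, DESeq2 334, 349, 428, 33 and 32, and edgeR on the compared libraries alone 471, 0, 4, 6 and 5. With the muscle covariate 63 were called at baseline and 268 at 2dpr. From baseline to 0dpr in immature mice 2257 became 48 with the compared libraries alone, 802 with the block and 988 with muscle, and in mature mice 4775 became 179 with muscle. From 0 to 2dpr 9324 became 1444 and 10100 became 1248 with muscle, and 6119 in mature mice with the compared libraries alone. From 5 to 14dpr 674 became 1875 and 886 became 2589 with the compared libraries alone, and 1029 and 1386 with DESeq2.

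Counting depth limits Ciita most, with 45 to 1010 counts per library. Groups of 4 or 3 libraries cannot give an exact p below 0.0286. Cell number and RNA per cell, and stage and muscle share between 0 and 2dpr, cannot be told apart in these data.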
